A study of Mus musculus with 9 samples.

Results

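Mouse bone marrow-derived macrophages (BMMs) kept for 48 h in K7M2 conditioned medium with DTM added (CM plus DTM) were compared with control BMMs. The labels put 3 libraries in CM plus DTM and 3 in control, so 6 of the 9 libraries of the series made up the comparison. The other 3 libraries came from BMMs kept for 48 h in the conditioned medium alone (CM), and they entered the same fit and are given beside the results. BMMs are macrophages grown in culture from bone marrow precursors, and K7M2 is a mouse osteosarcoma line whose conditioned medium carries what the cells release. DTM is not spelled out in the labels, which give neither its dose nor the medium and culture time of the control cells. There was no group with DTM alone, so what DTM does without the conditioned medium was not measured. CM against control gives the difference of the medium and CM plus DTM against CM what DTM adds to it, and a difference from control may include one of culture time or of the control's own medium. Libraries were made from TRIzol RNA with an mRNA kit, per the labels' protocols, and the unit was the read count per gene. The question was which genes still differed from control when DTM was present.

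Macrophages that sense type I interferon switch on interferon-stimulated genes through a transcription factor complex that contains IRF9 and binds the interferon-stimulated response element (ISRE), whereas interferon gamma acts at GAS elements. Tumour-derived factors can also lead macrophages to make chemokines, matrix-degrading proteases, lipid-handling proteins and ligands that dampen T cells. Cx3cr1 is the receptor for fractalkine and marks resident macrophages and patrolling monocytes.

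The libraries held between 43084296 and 50407973 counts, and each level is in CPM (the share of a library's reads after TMM scaling), always in the order of libraries 1, 2 and 3. The macrophage markers Csf1r, Adgre1, Cd68, Lyz2, Mertk and Fcgr1 were detected in all 9 libraries, for example Csf1r at 1603, 1703 and 1456 CPM in CM plus DTM and 2725, 2069.6 and 1992 CPM in control. A further macrophage marker of the set, not named here, was also detected in all 9 but was far lower in CM plus DTM 1. It stood at 66.3, 414 and 322 CPM in CM plus DTM, 526, 975 and 876 CPM in CM and 360, 270 and 371 CPM in control. The lymphocyte markers Cd3e, Cd79a and Ncr1 and the erythroid markers Hba-a1, Hbb-bs and Alas2 had at most 6 counts in any library. Other members of the T, B and NK cell list were present, 8 of 20 passing the filter on low counts, and these summed to 65.3, 19.5 and 22.1 CPM in CM plus DTM, 6.70, 17.2 and 24.2 CPM in CM and 41.2, 22.3 and 23.03 CPM in control. The immunoglobulin gene Igkc made up the largest part of the sum in CM plus DTM, at 57.5, 9.25 and 12.7 CPM in CM plus DTM, 0.178, 6.38 and 13.3 CPM in CM and 23.5, 6.005 and 5.62 CPM in control, and Ighm, a heavy chain gene, stood at 2.95, 2.60 and 3.09 CPM in CM plus DTM, 0.869, 2.78 and 2.70 CPM in CM and 11.8, 7.65 and 7.37 CPM in control. Neither was called (adjusted p = 0.571 for Igkc and 0.0778 for Ighm), though DESeq2 called Ighm lower, and the part of other cells in the results was not tested. Genes of granulocyte precursors and of mesenchymal cells were present: the neutrophil list summed to 1509.5, 745 and 541 CPM in CM plus DTM, 394, 1095 and 1021 CPM in CM and 864, 432 and 306 CPM in control. The mesenchymal and osteosarcoma list summed to 2936, 3159 and 2992 CPM in CM plus DTM, 510.2, 3059 and 3173 CPM in CM and 5226, 3429 and 3707 CPM in control. The mesenchymal marker Col1a1 stood at 300, 274 and 235 CPM in CM plus DTM, 63.1, 216 and 236 CPM in CM and 441, 251 and 224 CPM in control. In bulk RNA, fewer cells of a type and less RNA per cell cannot be told apart.

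The libraries did not stand as 3 even groups. CM plus DTM 1 lay apart from CM plus DTM 2 and 3: 4928 genes differed over 2-fold between CM plus DTM 1 and 2 and 3942 between 1 and 3, against 1247 between 2 and 3. In control the same counts were 1372 between 1 and 2, 1813 between 1 and 3 and 870 between 2 and 3. In CM they were 3279 between 1 and 2, 3373 between 1 and 3 and 776 between 2 and 3, so CM 1 also lay apart from its group. Number 1 was also apart in its sex-linked genes, in every group. Xist, the transcript of the inactive X chromosome, stood at 78.1, 0 and 0 CPM in CM plus DTM, 172, 0 and 0 CPM in CM and 64.95, 0 and 0 CPM in control. The Y-linked gene Eif2s3y stood at 4.82, 15.5 and 16.1 CPM in CM plus DTM, 0, 21.8 and 20.2 CPM in CM and 2.61, 13.2 and 15.1 CPM in control. Xist reads were thus found in number 1 alone, with low Y-linked reads in CM plus DTM 1 and control 1 and none in CM 1, and the labels give no sex or animal. As CM plus DTM 1 lay apart, results are given with all libraries and without it, or said to have been called in every fit. The fit without CM plus DTM 1 keeps CM 1 and control 1, which hold Xist reads, so it leaves that trait uneven between the groups. Counts, and fold changes of Cx3cr1 and some other genes, are also given on libraries 2 and 3 of each group. These are the libraries without Xist reads, and the comparison was chosen after the data were seen. Whether libraries of 1 group stem from different cultures or animals is not labelled, so p-values measure only how these libraries vary, and that variation may be technical.

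**Figure D1:**
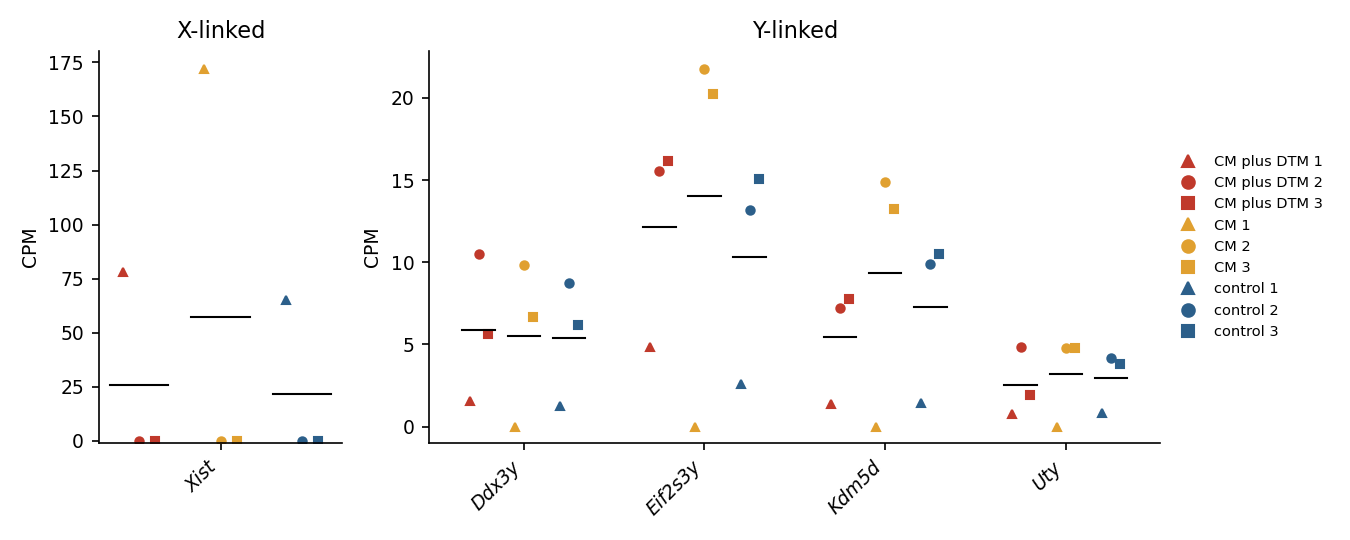
CPM of the X-linked transcript Xist (left) and of 4 Y-linked genes (right) in each of the 9 libraries, with CM plus DTM left of CM and control, a triangle for library 1, a circle for library 2 and a square for library 3. Xist reads appear in library 1 of every group, at 78.1 CPM in CM plus DTM 1, 172 CPM in CM 1 and 65.0 CPM in control 1, and are at 0 in libraries 2 and 3.

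With DTM present, 378 of 15429 genes tested differed from control, which was 2.45% of them, by the quasi-likelihood test of edgeR at a Benjamini-Hochberg adjusted p under 0.05. Of these, 232 rose (1.5% of the genes tested) and 146 fell (0.946%). The median log2 fold change was 2.14 over the rises and -1.36 over the falls, against 0.01 over all genes tested. A log2 fold change above 2 was found in 130 rises, and one below -2 in 31 falls. The groups did not overlap in any of the 378 genes, but they also did not overlap in 34.5% of all genes tested, 16.7% with CM plus DTM higher and 17.8% with it lower. At an unadjusted p under 0.05 there were 3762 genes (24.4%), 14% of all genes being higher, and DESeq2 called 1723 of the 15099 genes it adjusted (11.4%), with 6.65% higher. When reads were scaled to total counts and not by TMM, 176 genes rose and 273 fell, and the median of all genes moved to -0.24. The share of rises among the calls was 39.2% under that scaling, against 61.4% with TMM. CM against control, which uses the same control libraries, gave 623 rises (4.04%) and 242 falls (1.57%). In CM plus DTM against CM edgeR called 0 genes, with 4372 at an unadjusted p under 0.05, voom called 0 and DESeq2 called 2515, so no gene is said below to differ between the treated groups.

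CM plus DTM 1 was the highest of its group in 181 of the 232 rises, the lowest in 33 and between the others in 18. Of the 146 falls it was the lowest in 92, the highest in 13 and between in 41. Over all genes tested it was the highest in 6579 and the lowest in 6756. Without it, 213 genes rose (1.35%) and 118 fell (0.748%), and 267 of the 378 genes were called again. On libraries 2 and 3 of each group 1043 genes rose (6.75%) and 942 fell (6.1%), and 376 of the 378 genes were among them. The count rested more on the control libraries: 30, 15 and 54 genes were called without control 1, 2 and 3. It was 138 without CM plus DTM 3, 131 without CM 2, 131 without CM 3, 1766 without CM plus DTM 2 and 740 without CM 1. Without CM plus DTM 3, 9 genes fell, and without control 2, 0 genes fell.

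**Figure D2:**
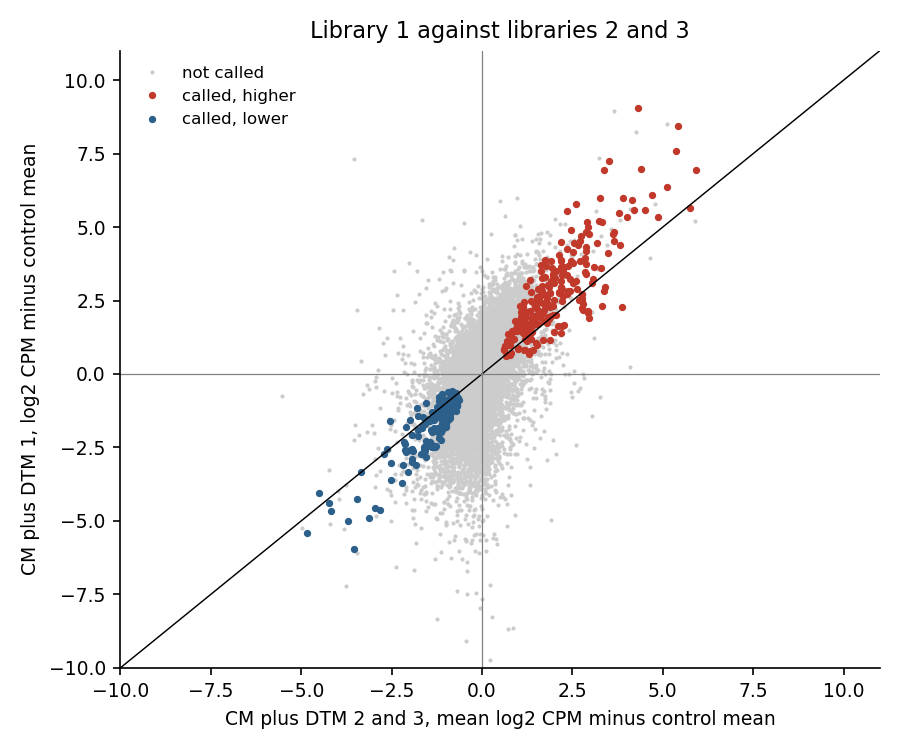
Each point is a gene, with the mean log2 CPM of CM plus DTM 2 and 3 minus the control mean on the x axis and log2 CPM of CM plus DTM 1 minus the control mean on the y axis. Red points are the 232 rises and blue points the 146 falls, and most red points lie above the diagonal of equal values, as CM plus DTM 1 was the highest library in 181 of them.

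The least library-dependent difference was a set of 14 genes that were called with all libraries and in each of the 9 fits that lacked 1 library. All 14 rose. No fall was called without control 2, so no fall could meet this. They included Rtp4, Usp18, Irf7 and Ifi206, which interferon induces, the chemokine Ccl6 and the chemokine receptor Ccr1, the interleukin 1 antagonist Il1rn, the proteases Mmp12 and Mmp13, the fatty acid binding protein Fabp5, coagulation factor X (F10), the endothelin receptor Ednrb and the transglutaminase Tgm1. Ccr1, Ednrb, Irf7 and Tgm1 lie outside the rule for named genes and were added after their values were seen.

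Rtp4, a chaperone of receptor transport that interferon induces, stood at 97.6, 81.1 and 82.1 CPM in CM plus DTM, 84.4, 97.3 and 105 CPM in CM and 14.2, 11.7 and 13.5 CPM in control. Usp18, the protease that removes ISG15 and restrains interferon signalling, stood at 184, 79.04 and 84.8 CPM in CM plus DTM, 88.9, 136 and 129.8 CPM in CM and 6.82, 6.005 and 6.47 CPM in control. Rtp4 was even across the CM plus DTM libraries, while Usp18 was over 2-fold higher in CM plus DTM 1 than in 2 and 3, and neither overlapped with control. The log2 fold change against control was 2.73 for Rtp4 (SE 0.17, adjusted p = 0.000718) and 4.17 for Usp18 (SE 0.37, adjusted p = 0.00368). In the fit without CM plus DTM 1 it was 2.61 for Rtp4 and 3.65 for Usp18, and for CM against control it was 2.86 and 4.20 in the same order. Rtp4 had the smallest adjusted p of the comparison, and shares exon sequence on its strand with another gene in the GENCODE annotation, so reads may be shared.

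Il1rn, the secreted antagonist of the interleukin 1 receptor, stood at 51.6, 42.1 and 33.5 CPM in CM plus DTM, 123, 101 and 107 CPM in CM and 6.52, 7.23 and 7.98 CPM in control. Its log2 fold change was 2.55 (SE 0.20, adjusted p = 0.00309), and 2.36 without CM plus DTM 1. The CM plus DTM libraries of Il1rn all lay below those of CM and above those of control, and the difference of CM from control was 3.93. F10, the clotting protease factor X, stood at 13.7, 12.3 and 10.3 CPM in CM plus DTM, 37.6, 48.5 and 50.3 CPM in CM and 3.003, 2.26 and 2.06 CPM in control. It took the same place between the groups, with a log2 fold change of 2.31 against control (SE 0.23, adjusted p = 0.00453), 2.19 without CM plus DTM 1 and 4.22 in CM. The test of CM plus DTM against CM called neither, with a log2 difference of -1.38 for Il1rn (adjusted p = 0.0611) and -1.91 for F10 (adjusted p = 0.0611).

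Mmp12, macrophage elastase, stood at 4181, 4626 and 5632 CPM in CM plus DTM, 7664, 8504 and 8582 CPM in CM and 607, 744 and 911 CPM in control. Mmp13, a collagenase, stood at 499, 335 and 376 CPM in CM plus DTM, 400.5, 1613 and 1383 CPM in CM and 11.3, 12.04 and 13.3 CPM in control. In contrast with most rises, CM plus DTM 1 was the lowest library of its group for Mmp12, and it was the highest for Mmp13. The log2 fold change was 2.67 for Mmp12 (SE 0.22, adjusted p = 0.00313) and 5.05 for Mmp13 (SE 0.50, adjusted p = 0.00453). Lacking CM plus DTM 1 they were 2.74 and 4.84, and in CM against control 3.45 and 6.53. Fabp5, which carries fatty acids inside the cell, stood at 1230.2, 1122 and 1278 CPM in CM plus DTM, 1905, 1252 and 1376 CPM in CM and 296, 343 and 284 CPM in control, a log2 fold change of 1.98 (SE 0.20, adjusted p = 0.00453). Its value was 1.94 without CM plus DTM 1 and 2.30 in CM against control.

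Ccl6, a chemokine that attracts myeloid cells in the mouse, stood at 21789, 8229.6 and 8701 CPM in CM plus DTM, 9383, 17463 and 18466 CPM in CM and 442, 443 and 481 CPM in control. It was the third most abundant transcript by CPM in CM plus DTM 1. Against control the log2 fold change was 4.83 (SE 0.48, adjusted p = 0.00453) and 4.20 without CM plus DTM 1, and 5.05 in CM against control. Ccr1, a receptor of Ccl3 and related chemokines, stood at 471, 231 and 213 CPM in CM plus DTM, 353, 474 and 445 CPM in CM and 36.1, 25.6 and 30.97 CPM in control, a log2 fold change of 3.30 (SE 0.33, adjusted p = 0.00453). Ednrb, a receptor of endothelins, stood at 32.7, 40.9 and 47.6 CPM in CM plus DTM, 54.6, 84.9 and 79.8 CPM in CM and 4.42, 7.34 and 7.57 CPM in control, a log2 fold change of 2.65 (SE 0.28, adjusted p = 0.00518). For Ccl6, Ccr1 and Ednrb the lowest CM plus DTM library lay above the highest control library by over 3-fold.

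**Figure D3:**
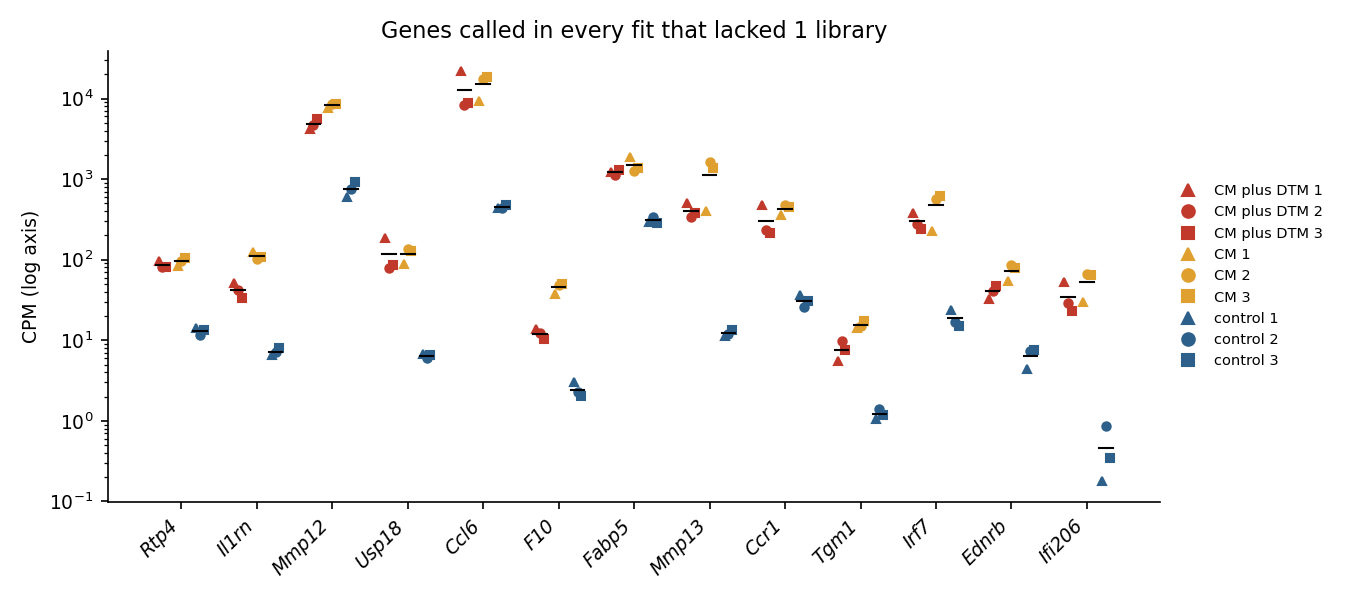
CPM on a log axis of named genes that were called with all libraries and in every fit that lacked 1 library, with CM plus DTM left of CM and control for each gene the marker shape giving the library number and black bars the group means. In each gene the 3 CM plus DTM libraries lie above the 3 control libraries, with Rtp4 between 81.1 and 97.6 CPM in CM plus DTM and between 11.7 and 14.2 CPM in control.

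Interferon-stimulated genes were the largest group of rises. Of 57 tested, 43 rose, 0 fell and 14 were not called, where 1.5% of all genes tested rose. At an unadjusted p under 0.05 edgeR had 54 higher and 0 lower, where 14% of all genes were higher. DESeq2 called 51 higher and 0 lower, where it called 6.65% of all genes higher. The median log2 fold change was 2.45 against 0.01 over all genes. The list holds Ifit1, which the title of the series names. This list and all others were chosen with earlier results of these data known, so their counts are not independent of the data. Of 19 genes typical of interferon gamma 14 rose and 0 fell (16 higher and 0 lower by DESeq2), with a median of 2.59. Without CM plus DTM 1, 42 and 13 genes of these lists rose, where 1.35% of all genes did, and the medians were 1.94 and 2.11. On libraries 2 and 3 of each group 49 and 16 rose (6.75% of all genes), and 0 and 1 fell. In CM against control 52 and 15 members rose, where 4.04% of all genes did, with medians of 2.71 and 3.13.

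The size of the rise differed between libraries more than its direction. The median distance of the interferon-stimulated genes from the control mean in log2 CPM was 2.89, 1.98 and 2.02 in CM plus DTM, 2.58, 2.94 and 2.85 in CM and -0.27, 0.09 and 0.12 in control. For the interferon gamma list it was 3.10, 2.11 and 2.35 in CM plus DTM, 2.65, 3.42 and 3.39 in CM and -0.61, 0.29 and 0.18 in control. CM plus DTM 1 thus lay among the CM libraries, and CM plus DTM 2 and 3 lay below all 3 CM libraries and above all 3 control libraries in both lists.

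Ifit1, an antiviral protein that binds foreign RNA ends, stood at 45.7, 5.96 and 4.23 CPM in CM plus DTM, 31.02, 24.8 and 19.9 CPM in CM and 0.731, 0.823 and 0.835 CPM in control. The first of the CM plus DTM libraries exceeded all CM libraries and the other 2 were lower than all of them, while all 3 exceeded control. The log2 fold change against control was 4.54 (SE 0.88, adjusted p = 0.0348), and 2.66 without CM plus DTM 1 (adjusted p = 0.0048). CM plus DTM 1 minus control 1 was 5.89, a difference between 2 libraries with no test. Slfn1, which restrains T cell growth in the mouse, stood at 471, 55.2 and 60.5 CPM in CM plus DTM, 82.4, 289 and 276 CPM in CM and 0.988, 1.28 and 1.77 CPM in control. The log2 fold change reached 7.18 (SE 1.05, adjusted p = 0.0167) and 5.40 without CM plus DTM 1, so 1 library set much of its size. Ifi213 and Ifi206, DNA sensors of the mouse PYHIN family, stood at 65.7, 14.2 and 14.2 and at 52.4, 28.9 and 22.9 CPM in CM plus DTM, against 0.158, 0.403 and 0.407 and 0.178, 0.875 and 0.346 CPM in control. Their log2 fold changes were 6.59 (adjusted p = 0.0086) and 6.19 (adjusted p = 0.00518), and 5.42 and 5.74 without CM plus DTM 1. Slfn1, Ifi206 and Ifi213 belong to families of near-identical genes among which reads may have been divided. Ifi213 was no longer called without control 1 or control 2 (adjusted p up to 0.0639). Slfn1 was no longer called without any 1 of the 3 control libraries (adjusted p up to 0.0929). Ifit1 was no longer called without CM 2, CM 3 or any 1 of the 3 control libraries (adjusted p up to 0.152).

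Ifi44, an interferon-induced protein, stood at 40.6, 14.6 and 16.6 CPM in CM plus DTM, 24.1, 41.3 and 39.7 CPM in CM and 0.316, 0.560 and 0.957 CPM in control, a log2 fold change of 5.29 (SE 0.57, adjusted p = 0.00518). Irf7, the transcription factor that amplifies type I interferon, stood at 382, 273 and 243 CPM in CM plus DTM, 228, 571 and 616 CPM in CM and 24.04, 16.8 and 15.2 CPM in control. Its 3 CM plus DTM libraries were within 2-fold of each other, and its log2 fold change was 4.0 (SE 0.41, adjusted p = 0.00453). Without CM plus DTM 1, Ifi44 had a value of 4.65. Ifi44 was no longer called without control 2 (adjusted p up to 0.0558). Among the members not called were factors that carry the interferon signal: Stat2 had a log2 difference of 0.53 (adjusted p = 0.513) and Irf9 0.57 (adjusted p = 0.077). They were chosen after their values were seen.

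In the interferon gamma list, Gbp7 and Gbp6, GTPases that attack pathogen vacuoles, led the rises. Gbp7 stood at 9.85, 5.83 and 2.56 CPM in CM plus DTM, 4.94, 8.55 and 8.54 CPM in CM and 0.119, 0.193 and 0.346 CPM in control, a log2 fold change of 4.78 (SE 0.61, adjusted p = 0.0101). Gbp6 stood at 12.5, 2.87 and 3.57 CPM in CM plus DTM, 15.9, 20.2 and 18.7 CPM in CM and 0.119, 0.473 and 0.448 CPM in control, a log2 fold change of 4.17 (adjusted p = 0.0216). The immunity-related GTPases Tgtp1 (log2 fold change 3.80) and Iigp1 (3.71) rose as well. Socs1, the feedback inhibitor of interferon receptors, stood at 21.2, 5.18 and 5.89 CPM in CM plus DTM, 1.68, 5.94 and 7.21 CPM in CM and 0.770, 0.700 and 0.896 CPM in control, a log2 fold change of 3.77 (SE 0.71, adjusted p = 0.0323). Leaving out CM plus DTM 1 gave 4.23 for Gbp7, 3.18 for Gbp6, 2.81 for Tgtp1, 3.46 for Iigp1 and 2.79 for Socs1. The control levels of these genes were under 1.2 CPM, so their fold changes rest on few control reads, and Gbp7, Gbp6 and Tgtp1 share exon sequence with another gene. Gbp7 was no longer called without control 1 or control 2 (adjusted p up to 0.0667). Gbp6, Tgtp1 and Iigp1 were no longer called without CM 2, CM 3 or any 1 of the 3 control libraries (adjusted p up to 0.116). Socs1 was no longer called without CM plus DTM 3, CM 2, CM 3 or any 1 of the 3 control libraries (adjusted p up to 0.14).

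Promoters of 4 rising genes are printed because their start regions hold the letters of the ISRE: Ifi213 and Ifit1 as members of the interferon list, and Ifi206 and Mmp13 as genes called in every fit. The sequences are from RefSeq on GRCm38.p6, run 5′ to 3′ on the strand of the gene and cover the 250 bases before its start, and capitals mark matches to GAAANNGAAA on either strand.
Ifi213 chr1:173599273-173599522 (-): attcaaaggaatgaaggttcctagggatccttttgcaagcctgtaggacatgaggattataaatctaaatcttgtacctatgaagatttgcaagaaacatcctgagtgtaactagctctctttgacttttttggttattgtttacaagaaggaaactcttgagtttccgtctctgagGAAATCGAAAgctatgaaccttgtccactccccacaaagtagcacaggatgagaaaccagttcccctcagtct
Ifi206 chr1:173491319-173491568 (-): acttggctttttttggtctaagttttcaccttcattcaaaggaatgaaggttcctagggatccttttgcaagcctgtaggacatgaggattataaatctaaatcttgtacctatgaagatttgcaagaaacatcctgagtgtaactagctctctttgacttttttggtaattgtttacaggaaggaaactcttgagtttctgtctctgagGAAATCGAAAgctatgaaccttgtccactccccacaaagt
Ifit1 chr19:34640639-34640888 (+): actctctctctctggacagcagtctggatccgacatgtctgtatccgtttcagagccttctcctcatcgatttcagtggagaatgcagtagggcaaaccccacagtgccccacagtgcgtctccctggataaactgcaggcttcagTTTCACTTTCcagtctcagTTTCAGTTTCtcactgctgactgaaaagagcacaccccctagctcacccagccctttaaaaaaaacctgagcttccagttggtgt
Mmp13 chr9:7272264-7272513 (+): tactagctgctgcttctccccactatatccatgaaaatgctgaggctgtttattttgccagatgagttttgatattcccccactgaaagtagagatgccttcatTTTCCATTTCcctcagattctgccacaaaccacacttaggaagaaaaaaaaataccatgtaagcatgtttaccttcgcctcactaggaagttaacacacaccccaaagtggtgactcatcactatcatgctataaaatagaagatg

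The match lies 73 bases before the start in Ifi213, 40 in Ifi206 and 146 in Mmp13, and Ifit1 has matches at 104 and 85. Ifi213 and Ifi206 share the letters around their match, which falls at a different distance from the annotated start. A promoter of 300 bases, from 250 before to 50 after the start, was found for 10471 of 15414 symbols tested, and GAAANNGAAA or its reverse complement was in 421 of them (4.02%). Among the rises it was in 49 of 163 promoters (30.1%) and among the falls in 4 of 103 (3.88%). It was in 24 of 43 promoters (55.8%) of the interferon-stimulated list and 10 of 14 (71.4%) of the interferon gamma list. Rises outside both interferon lists had it in 21 of 121 promoters (17.4%), and the 14 genes called in every fit in 3 of 10, those of Ifi206, Mmp13 and Tgm1. The GAS letters TTCNNNGAA, the same on both strands, were in 9 of 14 promoters of the interferon gamma list (64.3%) and in 8.29% of all promoters. The 2 motifs can overlap, and a match describes the letters and not binding.

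**Figure D4:**
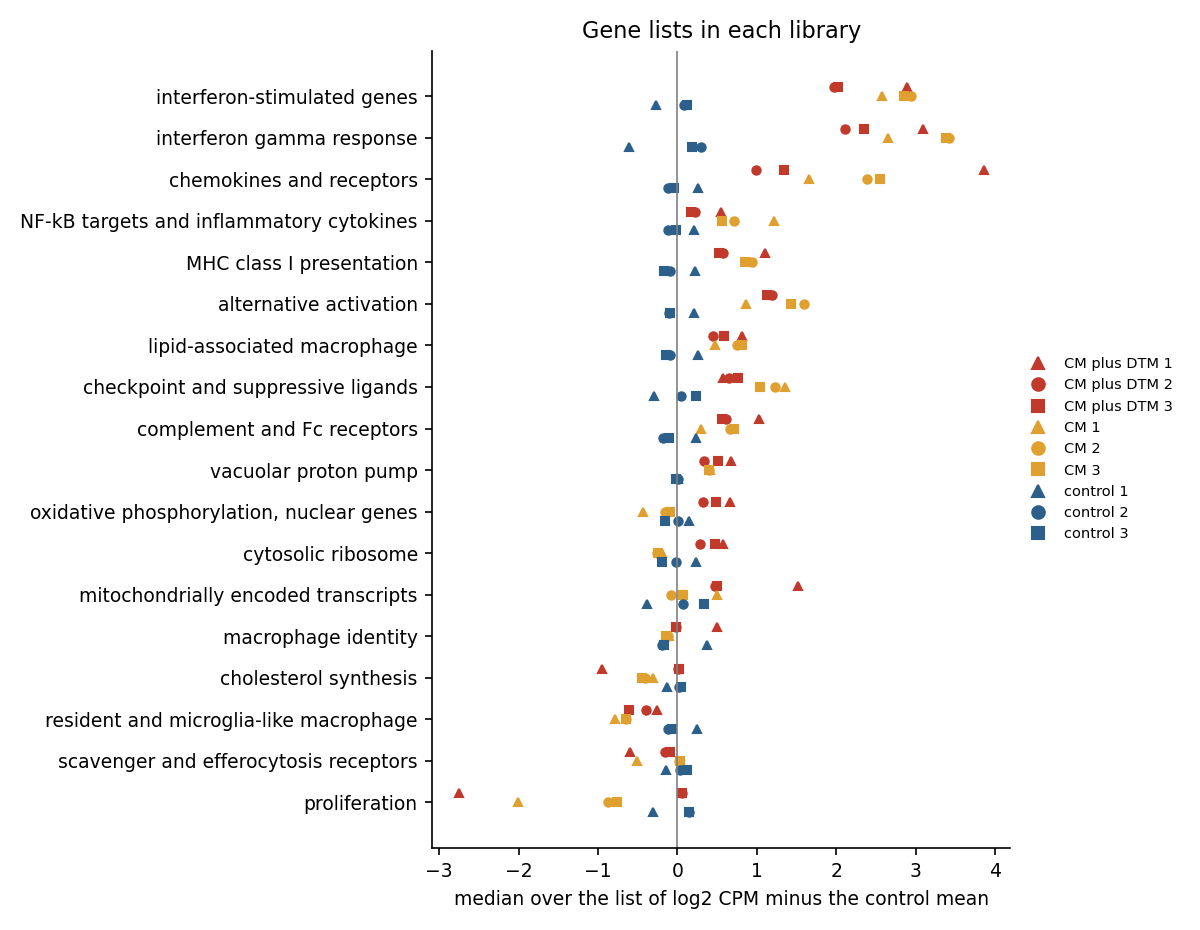
For each gene list on the y axis, the x axis gives the median over its members of log2 CPM minus the control mean in each library, with colours for CM plus DTM, CM and control and marker shapes for the library number. The interferon-stimulated list has CM plus DTM 1, 2 and 3 at 2.89, 1.98 and 2.02 and the control libraries within 0.3 of 0, whereas for the proliferation list CM plus DTM 1 is farthest to the left at -2.76.

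Chemokine genes rose next. Of 29 chemokines and chemokine receptors tested, 8 rose and 1, Cx3cr1, fell, where 1.5% and 0.946% of all genes did, and the same counts held without CM plus DTM 1. The median log2 fold change was 2.84, and 0.90 without CM plus DTM 1, so that library set most of the median. Cxcl3, which attracts neutrophils, had the largest rise among genes averaging at least 5 CPM, at 573, 22.2 and 20.7 CPM in CM plus DTM, 157, 515 and 581 CPM in CM and 1.72, 0.630 and 1.02 CPM in control. The gene had a log2 fold change of 7.52 (SE 1.51, adjusted p = 0.0389), and 4.24 without CM plus DTM 1 (adjusted p = 0.0132). CM plus DTM 2 and 3 stood over 10-fold above control and well below the CM libraries. Cxcl2, its close relative, stood at 191, 5.94 and 5.82 CPM in CM plus DTM, 176, 61.1 and 68.9 CPM in CM and 4.94, 2.07 and 2.59 CPM in control and was not called (log2 difference 4.40, adjusted p = 0.103).

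The monocyte chemoattractants Ccl2, Ccl7 and Ccl12, neighbours in the same chemokine family, rose together. Ccl2 stood at 8041, 3030.0 and 3393 CPM in CM plus DTM, 1380.5, 4023 and 5294 CPM in CM and 374, 451 and 498 CPM in control, a log2 fold change of 3.45 (SE 0.55, adjusted p = 0.0195). Ccl7 stood at 5850.4, 1338 and 1402 CPM in CM plus DTM, 296, 1628 and 1659.6 CPM in CM and 107, 79.2 and 92.2 CPM in control, a log2 fold change of 4.95 (SE 0.82, adjusted p = 0.0222). Ccl12 stood at 1558, 233 and 298 CPM in CM plus DTM, 36.9, 303 and 335 CPM in CM and 12.9, 12.4 and 12.1 CPM in control, a log2 fold change of 5.81 (SE 1.03, adjusted p = 0.0255). For all 3 genes CM 1 was the lowest CM library and CM plus DTM 1 the highest of all 9, with CM plus DTM 2 and 3 below CM 2 and 3. The same values lacking CM plus DTM 1 were 2.84 for Ccl2, 3.86 for Ccl7 and 4.39 for Ccl12. Ccl3, which attracts monocytes and T cells, stood at 763, 234 and 249 CPM in CM plus DTM, 529.5, 797 and 1004 CPM in CM and 51.2, 50.3 and 59.8 CPM in control, a log2 fold change of 2.95 (SE 0.47, adjusted p = 0.0196) and 2.15 without CM plus DTM 1. Ccl2, Ccl7 and Ccl3 were no longer called without any 1 of the 3 control libraries (adjusted p up to 0.11). Cxcl3 and Ccl12 were no longer called without CM 2, CM 3 or any 1 of the 3 control libraries (adjusted p up to 0.169).

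Cx3cr1 stood at 1.001, 7.46 and 4.19 CPM in CM plus DTM, 0.514, 0.421 and 0.288 CPM in CM and 130.2, 33.3 and 64.7 CPM in control. The lowest and closest to CM was CM plus DTM 1, and every CM plus DTM library was below every control library and above every CM library. The log2 fold change against control was -4.17 (SE 0.73, adjusted p = 0.0251), and -3.72 without CM plus DTM 1 (adjusted p = 0.0223). On libraries 2 and 3 of each group it was -3.07. For CM against control it was -7.53 (adjusted p = 0.00263), and the difference between the treated groups was 3.36 (adjusted p = 0.0611). Cx3cr1 was no longer called without CM plus DTM 3, CM 2, CM 3 or any 1 of the 3 control libraries (adjusted p up to 0.0978).

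Of 32 NF-kB targets and inflammatory cytokines 5 rose, Cxcl3, Il1a, Ccl3, Il1rn and Tnfaip3, and 0 fell, where 1.5% and 0.946% of all genes did. The median over the list was 0.27, and 5 rose without CM plus DTM 1 as well. Il1a, an alarm cytokine, stood at 26.8, 3.57 and 4.53 CPM in CM plus DTM, 22.03, 26.99 and 29.2 CPM in CM and 0.593, 0.210 and 0.428 CPM in control. Its log2 fold change was 4.82 (SE 0.83, adjusted p = 0.025) and 3.29 without CM plus DTM 1, with CM plus DTM 1 at the level of CM and CM plus DTM 2 and 3 far below it. Tnfaip3 (A20), which shuts NF-kB signalling off, stood at 48.9, 45.3 and 43.3 CPM in CM plus DTM, 44.1, 38.2 and 24.8 CPM in CM and 17.4, 16.3 and 21.6 CPM in control, a log2 fold change of 1.31 (SE 0.23, adjusted p = 0.025) and 1.24 without CM plus DTM 1. On libraries 2 and 3 of each group 11 members of the list rose and 6 fell, where 6.75% and 6.1% of all genes did. In CM against control 8 rose, where 4.04% of all genes did, with a median of 0.98. Il1a was no longer called without CM 2, CM 3 or any 1 of the 3 control libraries (adjusted p up to 0.116). Tnfaip3 was no longer called without CM plus DTM 3, CM 2 or any 1 of the 3 control libraries (adjusted p up to 0.124).

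Among 19 genes of alternative activation 4 rose and 0 fell, with and without CM plus DTM 1, where 1.5% of all genes rose with it and 1.35% without it, and the median was 1.28. Mgl2, a lectin of alternatively activated macrophages, stood at 32.5, 13.1 and 14.5 CPM in CM plus DTM, 147, 50.2 and 47.6 CPM in CM and 0.593, 0.368 and 0.204 CPM in control. Against control the log2 fold change was 5.68 (SE 0.67, adjusted p = 0.0086) and 5.12 without CM plus DTM 1. Every CM plus DTM library of Mgl2 was below every CM library, and the difference of CM from control was 7.70. Its paralogue Clec10a stood at 14.9, 19.02 and 24.4 CPM in CM plus DTM, 52.1, 60.7 and 66.99 CPM in CM and 7.63, 7.27 and 5.23 CPM in control, a log2 fold change of 1.54 (SE 0.24, adjusted p = 0.0185), with the same order of groups. Clec7a (Dectin-1), the receptor for fungal glucans, stood at 439, 191 and 255 CPM in CM plus DTM, 245, 585 and 569 CPM in CM and 46.3, 45.5 and 55.2 CPM in control, a log2 fold change of 2.59 (adjusted p = 0.0181). Egr2, an early-response transcription factor, had a log2 fold change of 2.74 (adjusted p = 0.025). With CM plus DTM 1 left out the fold changes were 1.67 for Clec10a, 2.17 for Clec7a and 2.07 for Egr2. Mgl2 was no longer called without control 2 (adjusted p up to 0.0639). Clec10a and Clec7a were no longer called without any 1 of the 3 control libraries (adjusted p up to 0.0931). Egr2 was no longer called without CM 2, CM 3 or any 1 of the 3 control libraries (adjusted p up to 0.107).

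Of 27 genes of lipid-associated macrophages 5 rose and 0 fell, where 1.5% of all genes rose, with a median of 0.59. In the fit lacking CM plus DTM 1, 6 rose (1.35% of all genes), and on libraries 2 and 3 of each group 20 rose and 2 fell, where 6.75% and 6.1% of all genes did. Besides Mmp12 and Fabp5 these were Fabp4, Lpl and Lgals3. Fabp4 stood at 57.9, 69.3 and 91.4 CPM in CM plus DTM, 209, 133 and 130.0 CPM in CM and 16.1, 19.8 and 19.6 CPM in control, a log2 fold change of 1.98 (SE 0.25, adjusted p = 0.00975) and 2.1 without CM plus DTM 1. Lpl, lipoprotein lipase, stood at 619, 981 and 792 CPM in CM plus DTM, 832, 1082 and 949 CPM in CM and 371, 322 and 247 CPM in control, a log2 fold change of 1.35 (SE 0.23, adjusted p = 0.0229) and 1.48 without CM plus DTM 1. Lgals3, the lectin galectin 3, stood at 5034, 4569.9 and 4944 CPM in CM plus DTM, 6235, 4724 and 5209.5 CPM in CM and 1825, 2153 and 1874 CPM in control, a log2 fold change of 1.31 (SE 0.18, adjusted p = 0.0132) and 1.26 without CM plus DTM 1. For Lpl and Lgals3 the CM plus DTM libraries reached into the range of CM, whereas for Fabp4 all 3 lay between the CM and control libraries. Abcg1, a cholesterol exporter and 1 of 2 rises (with Lpl) among 19 liver X receptor targets, stood at 62.6, 30.8 and 29.001 CPM in CM plus DTM, 348, 135 and 134 CPM in CM and 8.59, 10.3 and 10.3 CPM in control. The log2 fold change reached 2.07 (SE 0.44, adjusted p = 0.0456), and 1.60 without CM plus DTM 1 (adjusted p = 0.0798). The difference of Abcg1 in CM against control was 4.40. Fabp4 was no longer called without control 1 or control 2 (adjusted p up to 0.0639). Lgals3 was no longer called without any 1 of the 3 control libraries (adjusted p up to 0.0726). Lpl was no longer called without CM plus DTM 3 or any 1 of the 3 control libraries (adjusted p up to 0.108). Abcg1 was no longer called without CM plus DTM 1, CM plus DTM 3, CM 2, CM 3 or any 1 of the 3 control libraries (adjusted p up to 0.169).

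Among 22 genes of checkpoints and suppressive ligands 6 rose and 0 fell, where 1.5% of all genes rose, and 5 rose without CM plus DTM 1, where 1.35% did. Cd274 (PD-L1), which restrains T cells, stood at 198, 51.2 and 53.4 CPM in CM plus DTM, 182, 230.5 and 212 CPM in CM and 15.96, 10.5 and 10.4 CPM in control. The gene had a log2 fold change of 3.04 (SE 0.52, adjusted p = 0.0241) and 2.07 without CM plus DTM 1 (adjusted p = 0.00521). Here CM plus DTM 1 was at the level of CM, and CM plus DTM 2 and 3 were below all CM libraries and above all control libraries. Lgals9 (galectin 9), a ligand of TIM-3, was at 787, 527 and 476 CPM in CM plus DTM, 333, 534 and 604 CPM in CM and 143, 151 and 162 CPM in control, a log2 fold change of 1.97 (SE 0.27, adjusted p = 0.0123). Cd200r1, an inhibitory receptor of myeloid cells, rose by 1.71 on the log2 scale (adjusted p = 0.0479) and Tnfsf10 (TRAIL) by 1.90 (adjusted p = 0.0455). The inhibitory receptors Lilrb4a and Lilr4b had log2 fold changes of 1.55 and 1.36, and they share exon sequence and near-identical copies, so their reads may be divided between them. When CM plus DTM 1 was left out the estimates were 1.70 for Lgals9, 1.14 for Cd200r1, 1.08 for Lilrb4a and 1.03 for Lilr4b, and Tnfsf10 had 1.55 (adjusted p = 0.0788). Lgals9 was no longer called without any 1 of the 3 control libraries (adjusted p up to 0.0727). Cd274 was no longer called without CM 2, CM 3 or any 1 of the 3 control libraries (adjusted p up to 0.116). Cd200r1, Lilrb4a and Lilr4b were no longer called without CM plus DTM 3, CM 2, CM 3 or any 1 of the 3 control libraries (adjusted p up to 0.174). Tnfsf10 was no longer called without CM plus DTM 1, CM plus DTM 3, CM 2, CM 3 or any 1 of the 3 control libraries (adjusted p up to 0.168).

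The 34 genes of matrix remodelling and growth factors had 5 rises and 1 fall, where 1.5% and 0.946% of all genes rose and fell. Besides Mmp12 and Mmp13 the rises were Pdgfc, Mmp8 and Igf1. Pdgfc, a growth factor for stromal cells, stood at 50.5, 31.8 and 32.95 CPM in CM plus DTM, 14.6, 38.7 and 36.8 CPM in CM and 7.53, 7.09 and 7.55 CPM in control, a log2 fold change of 2.38 (SE 0.36, adjusted p = 0.0184). Igf1, insulin-like growth factor 1, had a log2 fold change of 0.72 (SE 0.15, adjusted p = 0.0426), and stood in CM plus DTM at 446, 451 and 517 CPM and control at 302, 266 and 288 CPM. Mmp8, a collagenase of neutrophils that macrophages also express, stood at 221, 158 and 142 CPM in CM plus DTM, 355, 780.4 and 676 CPM in CM and 27.1, 51.9 and 56.8 CPM in control. Its log2 fold change was 1.94 (adjusted p = 0.0323), and the 18 other neutrophil list members were not called. Pdgfb, another growth factor of the same family, fell to 17.3, 15.5 and 13.1 CPM in CM plus DTM, against 108, 45.4 and 46.5 CPM in control, a log2 fold change of -2.12 (SE 0.34, adjusted p = 0.0195), and CM had 8.002, 9.28 and 9.47 CPM. Pdgfc and Pdgfb thus moved in opposite directions. On the remaining libraries, lacking CM plus DTM 1, the estimates were 2.11 for Pdgfc, 0.74 for Igf1, -2.24 for Pdgfb and 1.71 for Mmp8 (adjusted p = 0.0625). On libraries 2 and 3 of each group they were 2.15 for Pdgfc, 0.81 for Igf1, -1.68 for Pdgfb and 1.47 for Mmp8. Tissue factor (F3), which starts clotting and was with F10 the second rise among 21 coagulation genes, stood at 5.98, 2.45 and 2.69 CPM in CM plus DTM, 5.02, 3.90 and 4.14 CPM in CM and 0.948, 0.683 and 0.509 CPM in control, a log2 fold change of 2.37 (adjusted p = 0.0268) and 1.82 without CM plus DTM 1. Pdgfb was no longer called without CM plus DTM 3 or control 2 (adjusted p up to 0.0754). Pdgfc was no longer called without any 1 of the 3 control libraries (adjusted p up to 0.0929). F3 was no longer called without CM 2, CM 3 or any 1 of the 3 control libraries (adjusted p up to 0.13). Igf1 was no longer called without CM plus DTM 3, CM 2, CM 3 or any 1 of the 3 control libraries (adjusted p up to 0.201). Mmp8 was no longer called without CM plus DTM 1, CM plus DTM 3, CM 2, CM 3 or any 1 of the 3 control libraries (adjusted p up to 0.108).

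Further lists had 1 or 2 rises each, where 1.5% of all genes rose, and counts of this size say nothing of the list as a whole. Of 17 subunits of the vacuolar proton pump 2 rose: Atp6v0d2, typical of osteoclasts, stood at 98.7, 84.9 and 105 CPM in CM plus DTM, 328, 159.6 and 160.3 CPM in CM and 20.7, 26.03 and 28.97 CPM in control, a log2 fold change of 1.93 (SE 0.30, adjusted p = 0.0184). Its ubiquitous relative Atp6v0d1 stood at 353, 367 and 369 CPM in CM plus DTM, 288, 302 and 321 CPM in CM and 234, 234 and 231 CPM in control, a log2 fold change of 0.64 (SE 0.12, adjusted p = 0.0348). The 3 control libraries of Atp6v0d1 lay within 3 CPM of each other, and every CM plus DTM library was above every CM library. Leaving out CM plus DTM 1 gave 1.89 for Atp6v0d2 and 0.64 for Atp6v0d1. Of 36 lysosome genes 1 rose, the cathepsin Ctsz, by 0.77 on the log2 scale (adjusted p = 0.0302). In CM against control 5 of the 36 rose, where 4.04% of all genes did. The unfolded protein response, with 22 genes, had 1 rise, the disulfide isomerase Pdia4, by 1.38 (adjusted p = 0.0348, with exon sequence shared with another gene), and of 36 of the integrated stress response 1, the transcription factor Atf5, by 0.67 (adjusted p = 0.0478). Atf5 had a difference of 1.67 in CM against control. Slc40a1 (ferroportin), the iron exporter, stood at 414, 297 and 338 CPM in CM plus DTM, 91.2, 229 and 183 CPM in CM and 108, 141 and 117 CPM in control, a log2 fold change of 1.51 (SE 0.31, adjusted p = 0.0406). It was not called in CM against control (log2 difference 0.45, adjusted p = 0.433), and the difference between the treated groups was 1.06 (adjusted p = 0.0727).

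Of 22 genes of MHC class I presentation 2 rose, H2-T23 (Qa-1), which engages inhibitory receptors of NK cells, and H2-T22, where 1.5% of all genes rose. The count of this list varied with the fit: 3 rose without CM plus DTM 1 (1.35% of all genes), 8 by DESeq2 (6.65%) and 13 on libraries 2 and 3 of each group (6.75%). With a term for library number 1, 8 rose, where 369 of all 15429 genes did. H2-T23 stood at 564, 197 and 251 CPM in CM plus DTM, 353, 385 and 347 CPM in CM and 79.4, 63.3 and 70.2 CPM in control, a log2 fold change of 2.25 (SE 0.36, adjusted p = 0.0195) and 1.64 without CM plus DTM 1. H2-T22 had a log2 fold change of 1.23 (adjusted p = 0.0207), and both belong to a family of similar genes. B2m, the light chain of MHC class I, was not called with all libraries, at 10856, 2076 and 2715 CPM in CM plus DTM, 3727, 2923 and 3418 CPM in CM and 969, 835 and 1066 CPM in control (log2 difference 2.45, adjusted p = 0.0566), but it was without CM plus DTM 1 (1.30, adjusted p = 0.0162). Hist1h2bc, a histone gene with polyadenylated transcripts, was the single rise among 17 histone genes (log2 fold change 1.24, adjusted p = 0.0301). Without CM plus DTM 1, Ctsz had 0.78, H2-T22 0.99 and Hist1h2bc 1.23. Pdia4 had 1.35 (adjusted p = 0.0608), Atf5 0.66 (adjusted p = 0.061) and Slc40a1 1.35 (adjusted p = 0.0798), so these 3 calls were lost without that library. H2-T23 and H2-T22 were no longer called without any 1 of the 3 control libraries (adjusted p up to 0.101). Atp6v0d2 was no longer called without CM plus DTM 3 or any 1 of the 3 control libraries (adjusted p up to 0.0931). Atp6v0d1, Ctsz and Hist1h2bc were no longer called without CM plus DTM 3, CM 2, CM 3 or any 1 of the 3 control libraries (adjusted p up to 0.174). Pdia4, Atf5 and Slc40a1 were no longer called without CM plus DTM 1, CM plus DTM 3, CM 2, CM 3 or any 1 of the 3 control libraries (adjusted p up to 0.186).

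The falls had a median log2 fold change of -1.36. Itga6, the integrin subunit that binds laminin, stood at 49.6, 84.4 and 55.1 CPM in CM plus DTM, 41.3, 65.995 and 50.6 CPM in CM and 345, 309 and 248 CPM in control. Against control the log2 fold change was -2.25 (SE 0.26, adjusted p = 0.0086), -2.12 without CM plus DTM 1 and -2.51 in CM, and it lay between -2.50 and -2.12 over the 9 fits that lacked 1 library. Notch4, a Notch receptor, stood at 0.622, 0.782 and 0.623 CPM in CM plus DTM, 0.435, 1.07 and 0.708 CPM in CM and 36.1, 10.3 and 7.33 CPM in control, a log2 fold change of -4.72 (SE 0.67, adjusted p = 0.0145) with control 1 over 3-fold above control 2 and 3. Both treated groups of Itga6 and Notch4 were low and overlapped with each other. Bcl6, a transcriptional repressor of inflammatory genes, stood at 13.3, 19.9 and 19.3 CPM in CM plus DTM, 42.5, 21.1 and 22.4 CPM in CM and 74.97, 79.4 and 98.4 CPM in control, a log2 fold change of -2.27 (SE 0.31, adjusted p = 0.0123), between -2.36 and -2.13 over the same 9 fits. Olfml3, a secreted protein typical of microglia and, with Cx3cr1, 1 of 2 falls among 21 resident macrophage genes, stood at 1.60, 7.25 and 4.34 CPM in CM plus DTM, 1.90, 6.68 and 5.84 CPM in CM and 43.99, 18.8 and 78.2 CPM in control, a log2 fold change of -3.41 (adjusted p = 0.0457). Of all genes tested 0.946% fell. Of the 21 resident macrophage genes, 8 were lower and 1 higher at an unadjusted p under 0.05. Of all genes 24.4% passed in either direction, 14% being higher. DESeq2 called 4 of the 21 lower and 0 higher, where it called 11.4% of all genes in either direction, 6.65% being higher. Without CM plus DTM 1, edgeR called 1 of them lower (0.748% of all genes). The log2 fold changes lacking CM plus DTM 1 were -4.68 for Notch4, -2.13 for Bcl6 and -3.04 for Olfml3 (adjusted p = 0.0757). On libraries 2 and 3 of each group they were -3.64 for Notch4, -1.99 for Itga6, -2.18 for Bcl6 and -3.06 for Olfml3. Itga6 was no longer called without control 2 (adjusted p up to 0.0558). Notch4 was no longer called without CM plus DTM 3 or control 2 (adjusted p up to 0.0558). Bcl6 was no longer called without any 1 of the 3 control libraries (adjusted p up to 0.0639). Olfml3 was no longer called without CM plus DTM 1, CM plus DTM 3, CM 2, CM 3 or any 1 of the 3 control libraries (adjusted p up to 0.162).

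Another set of falls was not called in CM against control. Gatad2b, a subunit of the NuRD chromatin complex, stood at 7.33, 7.86 and 8.61 CPM in CM plus DTM, 13.5, 39.6 and 35.1 CPM in CM and 29.6, 40.8 and 42.1 CPM in control, a log2 fold change of -2.24 (SE 0.37, adjusted p = 0.0216). Kif13b, a kinesin motor, stood at 3.46, 10.9 and 3.80 CPM in CM plus DTM, 46.2, 43.5 and 26.5 CPM in CM and 27.4, 30.6 and 31.1 CPM in control, a log2 fold change of -2.29 (SE 0.44, adjusted p = 0.0342). The difference of CM from control was -0.35 for Gatad2b (adjusted p = 0.62) and 0.38 for Kif13b (adjusted p = 0.651). Snx29, a sorting nexin, Pdpr, which regulates pyruvate dehydrogenase phosphatase, Lpin2, a lipid phosphatase, and Slc8a1, a sodium-calcium exchanger, fell too, with log2 fold changes of -2.67 for Snx29, -2.49 for Pdpr, -2.34 for Lpin2 and -2.15 for Slc8a1. In CM against control the differences were -0.24 for Snx29, -0.37 for Pdpr, -0.30 for Lpin2 and -0.70 for Slc8a1. Gpsm1, a modulator of G protein signalling, fell as well (-2.13, adjusted p = 0.025). Tlr9, the endosomal sensor of DNA and the single fall among 24 Toll-like receptor and sensor genes (0.946% of all genes fell), stood at 0.108, 0.613 and 0.365 CPM in CM plus DTM, 4.56, 1.64 and 1.17 CPM in CM and 5.02, 3.80 and 4.66 CPM in control, a log2 fold change of -3.60 (SE 0.68, adjusted p = 0.0324). In these genes CM plus DTM 1 was the lowest library of its group for all except Slc8a1 and Gpsm1. With CM plus DTM 1 left out the fold changes were -2.21 for Gatad2b, -2.03 for Kif13b (adjusted p = 0.0594), -2.37 for Snx29 (adjusted p = 0.0597), -2.14 for Pdpr, -2.03 for Lpin2 (adjusted p = 0.0513), -2.06 for Slc8a1, -2.48 for Gpsm1 and -3.21 for Tlr9. Gpsm1 was no longer called without CM 2, CM 3 or any 1 of the 3 control libraries (adjusted p up to 0.101). Gatad2b and Slc8a1 were no longer called without CM plus DTM 3 or any 1 of the 3 control libraries (adjusted p up to 0.0919). Pdpr and Tlr9 were no longer called without CM plus DTM 3, CM 2, CM 3 or any 1 of the 3 control libraries (adjusted p up to 0.136). Kif13b, Snx29 and Lpin2 were no longer called without CM plus DTM 1, CM plus DTM 3, CM 2, CM 3 or any 1 of the 3 control libraries (adjusted p up to 0.139).

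Of 22 scavenger and efferocytosis receptors 2 fell, where 0.946% of all genes did, 1 fell without CM plus DTM 1 (0.748%) and 1 with the length trend described below removed (0.587%). They were Lrp1 and Itgav. Lrp1, a large endocytic receptor, stood at 724, 1239.5 and 880.2 CPM in CM plus DTM, 941, 1696 and 1550.2 CPM in CM and 2984, 2491 and 2386 CPM in control, a log2 fold change of -1.47 (SE 0.28, adjusted p = 0.0324). Itgav, the integrin alpha V chain, stood at 8.55, 22.1 and 13.6 CPM in CM plus DTM, 30.8, 39.3 and 27.1 CPM in CM and 50.97, 50.5 and 55.3 CPM in control, a log2 fold change of -1.82 (SE 0.32, adjusted p = 0.025). Every CM plus DTM library of both genes lay below every control library. Slc43a2, an amino acid transporter, and Sh3pxd2a, a scaffold of podosomes, fell as well, with log2 fold changes of -1.26 (adjusted p = 0.0348) and -1.51 (adjusted p = 0.0251). Sh3pxd2a was the single fall among 18 osteoclast genes, in which Atp6v0d2 was the single rise. Without CM plus DTM 1, Lrp1 had -1.32 (adjusted p = 0.0597), Slc43a2 -1.14 (adjusted p = 0.0611) and Sh3pxd2a -1.48 (adjusted p = 0.0513), and Itgav had -1.57. Itgav was no longer called without CM plus DTM 3, CM 2, CM 3 or any 1 of the 3 control libraries (adjusted p up to 0.104). Sh3pxd2a was no longer called without CM plus DTM 1, CM plus DTM 3, CM 3 or any 1 of the 3 control libraries (adjusted p up to 0.103). Lrp1 and Slc43a2 were no longer called without CM plus DTM 1, CM plus DTM 3, CM 2, CM 3 or any 1 of the 3 control libraries (adjusted p up to 0.126).

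The falls were long genes. The longest GENCODE transcript had a median length of 5359 bases over the falls, 2645 over the rises and 3051 over all genes tested. In 5 equal classes by length of the 12119 genes with a known length that averaged at least 1 CPM over the 6 libraries compared, which hold 213 of the rises and 133 of the falls, from short to long, the median log2 fold change was 0.44, 0.07, -0.05, -0.16 and -0.29, the number of falls 1, 4, 18, 33 and 77, and the number of rises 57, 52, 45, 36 and 23. The shortest class lay at 0.71, 0.17 and 0.39 from the control mean in CM plus DTM 1, 2 and 3 and the longest at -0.39, -0.15 and -0.30, so each library of the group had the gradient and CM plus DTM 1 the steepest. Control 1 had a gradient close to that of CM plus DTM 2, from 0.15 in the shortest to -0.13 in the longest class. Control 2 and 3 did not, at 0.004 and -0.125 in the shortest and 0.054 and 0.072 in the longest class. In CM against control the gradient ran the other way, from -0.18 in the shortest to 0.13 in the longest class. When the trend of each library with length was removed, a step chosen after the data were seen, 216 genes rose (1.44%) and 88 fell (0.587%) among 15002 with a known length, and 269 of the 378 genes were called. Among the genes named above, Olfml3, Lrp1, Sh3pxd2a, Slc43a2, Cd200r1, Ctsz, Atp6v0d1, Atf5 and Hist1h2bc were then no longer called (adjusted p = 0.0559 for Olfml3, 0.0843 for Lrp1 and up to 0.114 for Hist1h2bc). All 9 kept their direction: with the trend removed the log2 fold changes were as follows. Olfml3 had -3.21, Cd200r1 1.75, Sh3pxd2a -1.20, Lrp1 -1.16 and Slc43a2 -1.0. The rises Hist1h2bc, Ctsz, Atp6v0d1 and Atf5 had 0.91, 0.55, 0.46 and 0.53 in that order. The part of length in the falls was not otherwise tested.

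**Figure D5:**
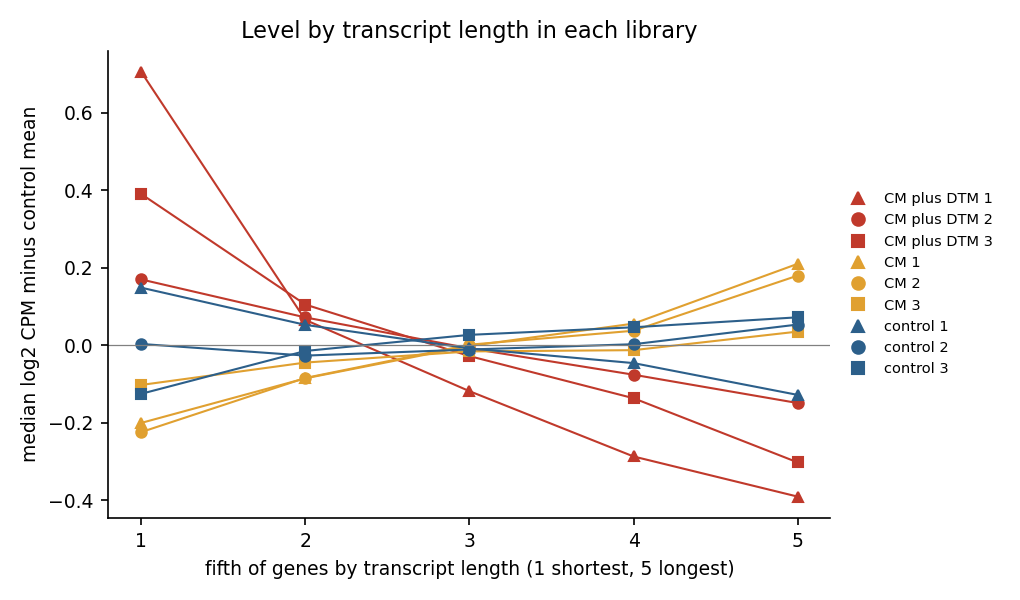
Genes were divided in 5 equal classes by the length of their longest transcript (x axis, 1 shortest), and the y axis gives the median over each class of log2 CPM minus the control mean in each library. The 3 CM plus DTM libraries descend from short to long genes, CM plus DTM 1 from 0.71 to -0.39, while the CM libraries ascend. Control 1 descends as well, from 0.15 to -0.13.

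The same length values stand beside the gene lists that shifted without calls. Of 34 nuclear genes of oxidative phosphorylation 0 were called, with a median log2 difference of 0.51. At an unadjusted p under 0.05, 20 were higher and 0 lower, where 14% of all genes were higher. DESeq2 called 8 higher, where it called 6.65% of all genes higher. The groups did not overlap in 23, all higher with DTM, where 16.7% of all genes were. The median length of this list was 1716 bases, and its median difference was 0.19 with the length trend removed. Of 39 cytosolic ribosomal protein genes edgeR called 0, with 24 higher at an unadjusted p under 0.05 (14% of all genes) and 3 called higher by DESeq2 (6.65%). They had a median of 0.48, a median length of 1248 bases and 0.18 with the trend removed. The 26 mitochondrial ribosome genes had 0 calls by edgeR, 11 higher at an unadjusted p under 0.05 (14% of all genes) and 3 called higher by DESeq2 (6.65%). They had a median of 0.27, a median length of 2652 bases and 0.25 with the trend removed. Cox4i1, a subunit of cytochrome oxidase, stood at 427, 373 and 415 CPM in CM plus DTM, 262, 249 and 267 CPM in CM and 311, 279 and 255 CPM in control, a log2 difference of 0.52 that was not called (adjusted p = 0.0792) and was 0.04 with the trend removed. In CM against control the medians of the 3 lists were -0.24, -0.23 and -0.15.

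In other lists without calls CM plus DTM 1 lay apart. The 48 proliferation genes had a median log2 difference of -0.55 and lay at -2.76, 0.06 and 0.05 for CM plus DTM, -2.0, -0.87 and -0.77 in CM and -0.31, 0.15 and 0.15 in control. Rrm1, a subunit of ribonucleotide reductase, stood at 34.7, 315 and 258 CPM in CM plus DTM, 78.9, 191 and 186 CPM in CM and 322, 386 and 415 CPM in control. CM plus DTM 1 was the lowest of the 9 libraries in Rrm1, and CM plus DTM 2 and 3 were below every control library. On libraries 2 and 3 of each group 0 proliferation genes rose and 6 fell, where 6.75% and 6.1% of all genes did, with a median of -0.22. The 26 cholesterol synthesis genes lay at -0.95, 0.01 and 0.02 for CM plus DTM, -0.31, -0.41 and -0.45 in CM and -0.14, 0.02 and 0.05 in control. The 15 mitochondrially encoded transcripts lay at 1.51, 0.47 and 0.50 for CM plus DTM, 0.50, -0.07 and 0.07 in CM and -0.39, 0.07 and 0.34 in control. The 13 MHC class II genes lay at 1.10, 0.33 and 0.58 for CM plus DTM, -0.20, 0.09 and 0.29 in CM and 0.25, -0.12 and -0.17 in control. In each of these 4 lists CM plus DTM 1 was the library farthest from the control mean, and edgeR called no member. At an unadjusted p under 0.05 the proliferation list had 0 genes, cholesterol synthesis 3, all lower, mitochondrially encoded transcripts 9, all higher, and MHC class II 4. DESeq2 called 0, 1, 5 and 1 of them in that order. Over all genes 24.4% had an unadjusted p under 0.05 (14% higher), and DESeq2 called 11.4% (6.65% higher).

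Several further lists had 0 calls by edgeR. Glycolysis and hypoxia had a median of 0.07 over 27 genes, the tricarboxylic acid cycle 0.17 over 21, fatty acid synthesis and oxidation -0.13 over 26, p53 targets and cell cycle inhibitors 0.18 over 25 and macrophage identity 0.14 over 21. At an unadjusted p under 0.05 these lists had 2, 6, 5, 5 and 3 genes in that order, and DESeq2 called 0, 1, 0, 1 and 1. Over all genes the shares were 24.4% (14% higher) at an unadjusted p under 0.05 and 11.4% (6.65% higher) by DESeq2. The same shares apply to the counts at an unadjusted p under 0.05 and by DESeq2 in the rest of this paragraph. The 28 genes of the NRF2 antioxidant response had a median of -0.11 and 0 calls, with 10 at an unadjusted p under 0.05 and 5 called by DESeq2. In CM against control 5 of them fell, where 1.57% of all genes did. Hmox1, which breaks down haem, stood at 6056, 4649 and 4281 CPM in CM plus DTM, 931, 5337 and 5578 CPM in CM and 4749.7, 2394 and 2825 CPM in control and was not called (adjusted p = 0.554). The 22 complement and Fc receptor genes had a median of 0.69 with 0 calls by edgeR, 11 higher at an unadjusted p under 0.05 and 8 called by DESeq2. Without CM plus DTM 1, 2 of them rose, where 1.35% of all genes did. C1qa, a chain of complement C1q, stood at 2514, 1294 and 1339 CPM in CM plus DTM, 576, 1038 and 1143 CPM in CM and 2016, 1245 and 1292 CPM in control and did not pass (adjusted p = 0.788). Among the lists of other cell types, dendritic, T, B and NK, mast cell, erythroid, mesenchymal and endothelial genes had 0 calls by edgeR, 11 in all at an unadjusted p under 0.05 and 8 in all by DESeq2, and the neutrophil list 1 (Mmp8). Pf4, a platelet chemokine that macrophages also make, stood at 12816, 1703 and 2010.2 CPM in CM plus DTM, 439.6, 2711 and 2816 CPM in CM and 615, 304 and 285 CPM in control and was not called (adjusted p = 0.0742).

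Some genes set CM plus DTM 1 apart from its group in a way the comparison does not show. Among genes on which CM plus DTM 2 and 3 were close, it was highest against them for Cxcl3, Ms4a4c, Egr1, Gnal, Cxcl2, Ch25h and Rn7sk besides Xist. Egr1, an immediate early gene, stood at 203, 3.46 and 3.76 CPM in CM plus DTM, 23.4, 4.67 and 3.78 CPM in CM and 127, 4.50 and 5.60 CPM in control, so number 1 was high in all 3 groups. Gnal, a G protein subunit, shared this order at 28.5, 0.232 and 0.172 CPM in CM plus DTM, 1.11, 0.257 and 0.133 CPM in CM and 6.76, 0.245 and 0.183 CPM in control. Ch25h, which makes 25-hydroxycholesterol, stood at 834, 35.5 and 38.7 CPM in CM plus DTM, 43.1, 43.3 and 53.9 CPM in CM and 114, 27.2 and 32.2 CPM in control. Ms4a4c, a membrane protein that interferon induces, stood at 165, 8.11 and 11.1 CPM in CM plus DTM, 4.07, 31.2 and 27.8 CPM in CM and 0.711, 1.56 and 0.794 CPM in control, and its log2 difference of 5.90 was not called (adjusted p = 0.0569).

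At the other end, 10 genes had at most 5 counts in CM plus DTM 1 and at least 3 CPM in each of the 8 other libraries. CM 1 had 4 such genes, the neutrophil granule genes Ngp, S100a9, Ltf and the chitinase-like Chil3, which were named after their values were seen, and no other library had any. The 8 genes lowest in CM plus DTM 1 against CM plus DTM 2 and 3 were Cpne1, Rsc1a1, Rbm12, Gemin4, Akap2, Mfsd9, Thap12 and Cd300e. Rsc1a1 stood at 0.0541, 39.5 and 37.04 CPM in CM plus DTM, 42.1, 43.6 and 41.1 CPM in CM and 55.4, 48.2 and 53.7 CPM in control. Cpne1, a calcium-dependent membrane binding protein, stood at 0.0271, 49.5 and 51.4 CPM in CM plus DTM, 18.6, 48.2 and 18.1 CPM in CM and 28.9, 17.03 and 43.8 CPM in control. Rbm12, whose gene overlaps that of Cpne1, stood at 0, 12.99 and 19.2 CPM in CM plus DTM, 9.13, 15.4 and 9.93 CPM in CM and 14.1, 14.4 and 10.9 CPM in control. Of the 10 genes 6 share exon sequence on the same strand with another gene in GENCODE vM21 (60%) and 1 has no entry there, against 9.12% of the genes tested that share exon sequence. How the authors' counting treated reads of overlapping genes is not given in the sources used here.

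Leaving out CM plus DTM 1 also brought calls that all libraries did not give: 64 genes, 28 up and 36 down, 2 of which were not tested with all libraries. Psap, the precursor of lysosomal saposins, stood at 7584, 17650.5 and 14655 CPM in CM plus DTM, 19759, 24270.3 and 24501 CPM in CM and 7745, 7876 and 7090.0 CPM in control. Its log2 difference was 0.81 with all libraries (adjusted p = 0.152) and 1.07 without CM plus DTM 1 (adjusted p = 0.0286). Itgax (CD11c), an integrin of dendritic cells and tissue macrophages, stood at 44.4, 85.97 and 71.2 CPM in CM plus DTM, 85.3, 109 and 105 CPM in CM and 42.6, 27.4 and 29.3 CPM in control, with 1.23 without CM plus DTM 1 (adjusted p = 0.0304). For both genes CM plus DTM 1 was the library closest to control. Tbl1xr1, a corepressor subunit, stood at 80.8, 10.9 and 10.1 CPM in CM plus DTM, 80.9, 60.1 and 58.7 CPM in CM and 26.5, 36.9 and 42.2 CPM in control, so CM plus DTM 1 lay above and CM plus DTM 2 and 3 below every control library. The values of Tbl1xr1 were -0.05 with all libraries (adjusted p = 0.969) and -1.77 without CM plus DTM 1 (adjusted p = 0.0146). Kmt2d and Ssh2, a histone methyltransferase and a cofilin phosphatase, had -1.54 and -1.62 without CM plus DTM 1 (adjusted p = 0.0321 and 0.0199), and -1.07 and -0.91 with all libraries (adjusted p = 0.114 and 0.212).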

How the data were processed

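RNA of 9 libraries, 3 each of CM plus DTM, CM and control, was sequenced on a DNBSEQ-T7 instrument, per the labels' protocols. The authors deposited 1 table of raw read counts per gene, with 51826 entries, of which 26492 had any count, and every column was matched to a sample by its name. Per the submitters' processing notes the tools were HISAT2 2.1.0, Trimmomatic 0.36, DESeq2 1.12.4 and FastQC 0.11.2, and the builds GRCh38 and mm39 are named without a role. The read counter, its annotation and its use of strand are not given in the sources used here. No unassigned rows such as reads without a feature were in the table, and 183 entries shared 91 symbols.

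From these counts, edgeR 4.0.16 in R 4.3.3 was run with its expression filter (15429 genes tested), TMM scaling and 1 quasi-likelihood fit to all 9 libraries by group, and p-values were adjusted by the Benjamini-Hochberg method at 0.05. The SE was obtained as the absolute log2 fold change over the root of its F statistic. CPM were scaled by TMM, and log2 CPM had a prior count of 2. Tested on simulated data drawn from these libraries, in which 200 of 15156 genes changed, the fit recovered 7% of genes changed by a log2 fold of 1 and 69% of those changed by 2, with 5 false calls. Libraries of a group differed beyond counting error (chi-square per degree of freedom of 26.6 to 448), so none was a copy of another. Same-numbered libraries did not deviate together in every pair of groups, so numbers were not used as pairs.

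The members and the 44 gene lists (928 genes tested) were chosen with earlier results of these data known. The genes named were Ifit1 and Cx3cr1, the 12 largest rises and falls among called genes averaging at least 5 CPM with groups that did not overlap, the 8 smallest adjusted p-values in each direction among genes called in all 9 fits that lacked 1 library, up to 6 called members averaging at least 1 CPM from each list or up to 3 abundant members where none was called, the 8 highest and 8 lowest genes of CM plus DTM 1 against CM plus DTM 2 and 3, and the 8 largest rises and falls called only without CM plus DTM 1. Genes that are not reported here stay in the counts, predicted genes were counted and not named, and not every gene that the rule selects is described. Alternatives were DESeq2 1.42.0, limma 3.58.1 voom, other scalings, filters and sets of libraries. Transcript lengths and exon overlaps are from GENCODE vM21, and promoters from RefSeq on GRCm38.p6, neither being the build of the notes.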

Additional observations from a re-analysis of the deposited data

How the results depend on the processing

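The count of 378 genes (232 higher, 146 lower in CM plus DTM) moved by over 1.5 times under many settings. DESeq2 called 1723 (1004 higher, 719 lower) and voom with sample weights 5853 (3012 higher, 2841 lower), while voom without weights called 360. Total count scaling gave 273 lower genes and no expression filter gave 90. The fit to the 6 libraries compared gave 118 (96 higher, 22 lower), and 628 (289 lower) without CM plus DTM 1. Without CM plus DTM 1 and CM 1 there were 1311 (636 higher, 675 lower), and against a minimum fold of 1.5 there were 112 (98 higher, 14 lower). Leaving out 1 library at a time gave 15 to 1766 changed, 15 to 1082 higher and 0 to 684 lower genes. Alternatives chosen after the data were seen gave 1985 (1043 higher, 942 lower) on libraries 2 and 3 of each group, 645 (369 higher, 276 lower) with a term for library number 1 and 88 lower genes with the length trend removed. The cause of these moves was not tested. Of the 72 called genes named by the rule, none changed direction under any of these settings, and 70 were called by DESeq2, which gave no adjusted p for the other 2 (Slfn1 and Slfn4), 63 by voom (without Ifit1, Cxcl3, Slfn4, Il1a, Olfml3, Socs1, Tnfsf10, Cd200r1 and Abcg1), 34 in the fit to 6 libraries and 10 without control 2.

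The labels number the libraries 1 to 3 in each group. Deviations from the group means correlated by 0.297, 0.053 and 0.197 between CM plus DTM and control of the same number, by 0.127, 0.142 and 0.097 between CM plus DTM and CM, and by 0.032, 0.038 and -0.044 between CM and control. CM plus DTM 2 correlated more with control 3 (0.219) than with control 2. With the replicate block 149 genes were called (101 higher, 48 lower), 137 of them among the 378. Of the 72 called genes named by the rule 34 were called with it and 38 were not. The labels do not say what a number marks. Number 1 of each group holds Xist reads and numbers 2 and 3 do not, so number 1 has a trait in common across groups, but no more is known of a pairing.

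The 3 libraries per group limit the precision. At this size a 2-fold change was mostly missed in simulated data, in which no library stood apart.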
